A study of Mus musculus with 6 samples.

Results

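Genes of the sebaceous gland and its lipid output were compared between chemically induced mouse skin tumors and healthy skin: Awat1, Awat2, Dgat2l6, Dgat2, Elovl3, Fa2h, Scd1, Scd3, Krt79 and Mc5r. They were taken by name, as the non-control probes that carry one of these 10 gene symbols in the array's own annotation. This gave 12 probes of 55681, and all 10 genes were among the 24757 features tested (1 probe for each gene or unnamed transcript). Sebocytes, the cells of the sebaceous gland, fill with lipid as they mature and then burst, releasing the whole cell as sebum onto the hair and skin surface. In mice sebum is rich in wax esters, diesters and triglycerides, and making it takes enzymes that elongate, desaturate and hydroxylate fatty acids and then join them to alcohols or glycerol. The gland opens into the hair follicle, and its cells depend on the nuclear receptor PPARγ.

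Tumors, labelled cSCC, came from female FVB/N mice painted with DMBA, a mutagenic hydrocarbon, then 2 times a week with the phorbol ester PMA (TPA) for 6 weeks, given DMBA again in the eighth week and PMA for another 14 weeks. Healthy skin came from female FVB/N mice that received acetone. There were 3 biopsies a group, taken at times and at an age not given in the sources used here, and the labels do not tie them to separate mice, so the p-values cover only the spread seen between the biopsies. Total RNA was hybridised to 1-colour arrays on 1 slide. Painted skin free of tumor was not among the samples, so treatment and tumor cannot be told apart, and in these whole biopsies fewer cells of a type and less RNA per cell cannot be told apart either. Between 48.7% and 65.4% of the spots on an array were well above background. That share was smallest for tumor 1, whose median background was 85 intensity units where the others had 23 to 26, and healthy skin 3 was the dimmest array.

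In tumors, 8 of the 10 genes were lower and none was higher (limma, Benjamini-Hochberg adjusted p under 0.05), where 15.6% of all features tested were lower and 25.9% were called in either direction. For the same 8, every tumor lay below every healthy skin sample, as did 29.0% of all features. The falls covered both wax synthases of the X chromosome and their neighbour Dgat2l6, the elongase Elovl3, the hydroxylase Fa2h, the desaturases Scd1 and Scd3, and the duct keratin Krt79. Dgat2 and the receptor gene Mc5r did not pass the test. The median log2 fold change of the 10 genes was -3.08, against -0.16 over all features. Some settings ended most of these calls. With the slide row as a block, 3 of the 10 genes were called lower (Awat2, Fa2h and Scd3), where 21.1% of features were. With scaling to the spike-in RNA, 2 were (Awat2 and Fa2h), where 3.15% of features were.

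**Figure D1:**
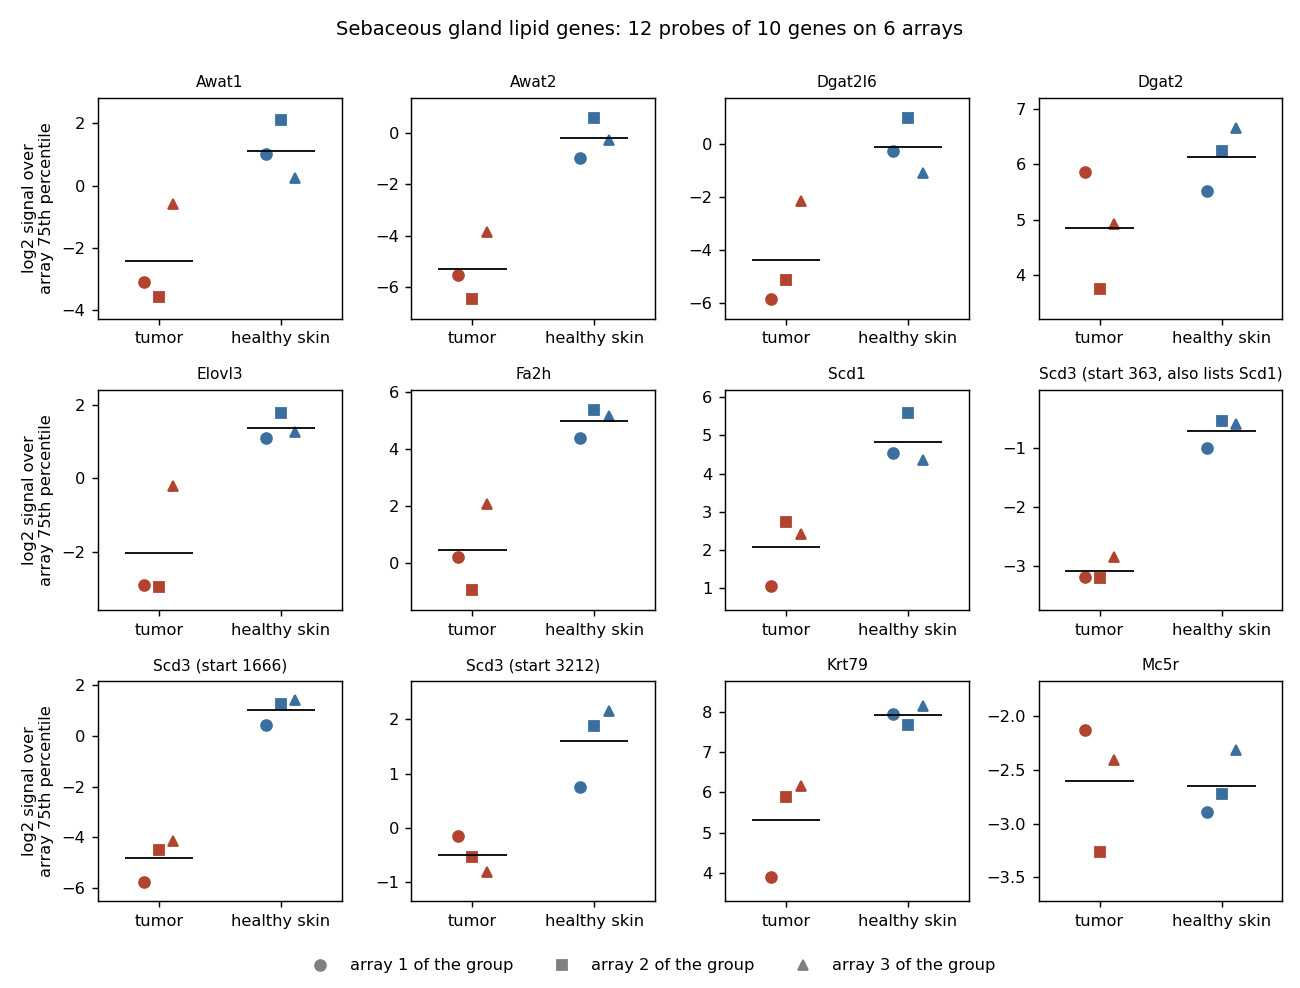
Log2 signal over the array's 75th percentile (y axis) in 3 tumors and 3 healthy skin samples for each of the 12 probes; points are arrays and horizontal bars are group means. For all probes but those of Dgat2 and Mc5r, the tumor points lie below the healthy skin points.

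Awat1 encodes an acyl-CoA wax alcohol acyltransferase, which joins a fatty alcohol to a fatty acid to make a wax ester. Its probe lies at chrX:97773128-97773187 (mm9, plus strand, as the array's annotation gives it). Signals are given here as log2 of the signal over the 75th percentile of that array, so that 0 is the 75th percentile itself. Awat1 was at -3.10, -3.59 and -0.60 in tumors 1 to 3 and at 1.02, 2.12 and 0.23 in healthy skin 1 to 3. Tumor 3 stood well above the other tumors and came within 1 log2 unit of healthy skin 3, though the groups did not overlap. The means were -2.43 ± 1.61 in tumors and 1.12 ± 0.95 in healthy skin (SD, n = 3 each). This made an 11.7-fold fall of Awat1 (log2 fold change -3.55 ± 0.83 SE, limma adjusted p = 0.0202). It was not called without tumor 1 (adjusted p = 0.0654), without tumor 2 (0.0571) or without healthy skin 2 (0.0581). The call was also lost with spike-in scaling (0.0854) and without healthy skin 3 and tumor 1 together. With the slide row as a block its log2 fold change was -2.66 (adjusted p = 0.142), over a range of adjusted p from 0.0042 to 0.142 in all alternatives.

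Awat2 encodes the second wax alcohol acyltransferase of this X-linked family, and its probe lies at chrX:97597565-97597624 on the minus strand. Its log2 signal was -5.54, -6.47 and -3.87 in the tumors and -0.97, 0.59 and -0.28 in healthy skin. The tumor values lay far below all healthy skin values, but only 1 of the 3 tumor arrays was well above background. The means were -5.30 ± 1.32 in tumors and -0.22 ± 0.78 in healthy skin (SD, n = 3 each), a 33.7-fold fall (log2 fold change -5.08 ± 0.69 SE, adjusted p = 0.00304). The size depended on the processing, with a log2 fold change of -2.97 after normexp correction and -3.18 in the authors' deposited values. Awat2 was called in each of the 19 alternatives that tested it, with adjusted p up to 0.0435.

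Dgat2l6, a relative of the diacylglycerol acyltransferases, has its probe at chrX:97741165-97741224 on the plus strand. It was at -5.85, -5.13 and -2.15 on the log2 scale in the tumors and at -0.26, 0.99 and -1.09 in healthy skin. As for Awat1, tumor 3 was the highest tumor and about 1 log2 unit below the lowest healthy skin sample, and 2 of 3 tumor arrays were well above background. Means of -4.38 ± 1.96 in tumors and -0.12 ± 1.05 in healthy skin (SD, n = 3 each) gave a 19.1-fold fall (log2 fold change -4.26 ± 0.97 SE, adjusted p = 0.0189). The log2 fold change was -2.74 after normexp correction and -3.03 in the authors' deposited values. The call was lost when tumor 1 (adjusted p = 0.0551), tumor 2 (0.057) or healthy skin 2 (0.0547) was left out. It was also lost with spike-in scaling (0.0511) and without healthy skin 3 and tumor 1 together. Under the slide row block it was lost too (log2 fold change -3.28, 0.133), with a range over the alternatives of 0.00372 to 0.133.

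These 3 genes lie close together on the X chromosome, in the order Awat2, Otud6a, Igbp1, Dgat2l6, Awat1 in the RefSeq table of GRCm38.p6. Because neighbours fell together, the 250 bases before their start sites are shown, in transcript direction, from that RefSeq table; capitals mark a CCAAT box, and windows without capitals held none of the motifs searched.
Awat2 (chrX:100442718-100442967, GRCm38.p6, minus strand): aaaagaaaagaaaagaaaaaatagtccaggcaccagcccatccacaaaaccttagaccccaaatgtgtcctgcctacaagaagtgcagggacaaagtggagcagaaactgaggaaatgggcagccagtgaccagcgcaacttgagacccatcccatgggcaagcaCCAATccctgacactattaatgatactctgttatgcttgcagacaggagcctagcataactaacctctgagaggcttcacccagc
Dgat2l6 (chrX:100524588-100524837, GRCm38.p6, plus strand): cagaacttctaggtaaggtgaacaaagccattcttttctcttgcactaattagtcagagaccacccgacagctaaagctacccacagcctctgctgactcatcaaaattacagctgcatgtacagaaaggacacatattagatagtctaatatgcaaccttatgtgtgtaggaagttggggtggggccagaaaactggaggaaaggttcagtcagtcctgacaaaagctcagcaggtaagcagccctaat
Awat1 (chrX:100571997-100572246, GRCm38.p6, plus strand): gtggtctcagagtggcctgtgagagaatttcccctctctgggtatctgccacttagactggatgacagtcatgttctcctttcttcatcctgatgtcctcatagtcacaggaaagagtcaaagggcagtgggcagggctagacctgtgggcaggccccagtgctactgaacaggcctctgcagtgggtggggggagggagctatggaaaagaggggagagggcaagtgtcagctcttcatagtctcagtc
The motifs, searched on both strands, were the TATA box (TATAAA), the CCAAT box (CCAAT), the GC box (GGGCGG), the nuclear receptor half-site (AGGTCA), the PPAR-RXR direct repeat (that half-site repeated with 1 base between, so the pair overlaps with it), a sterol element (TCACNCCAC) and the E-box (CACGTG). The CCAAT of Awat2 stood 85 bases before the start. A second Awat2 window (chrX:100412588-100412837, minus strand), not printed, held a CCAAT on the other strand and a GC box. Which Awat2 start belongs to the transcript measured was not looked at. Of all 32851 windows of this length, 33.8% held CCAAT, 32.7% the GC box, 14.0% the half-site, 12.4% the TATA box, 6.02% the E-box, 1.05% the sterol element and 0.0335% the PPAR-RXR repeat. A match is a description of the letters, and promoter windows were found for 5 of the 10 genes, with none of the motifs in those of Krt79 and Scd3 either.

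Between Dgat2l6 and Awat2 lies Igbp1, a regulatory subunit of protein phosphatases, which was picked for its position after its values were seen. Its log2 signal was 1.63, 1.48 and 1.45 in tumors and 1.32, 1.66 and 0.21 in healthy skin. The groups overlapped, and Igbp1 was not called (log2 fold change 0.46 ± 0.41 SE, 95% interval -0.49 to 1.41, adjusted p = 0.426); its sign turned without healthy skin 3 and tumor 1 together. Otud6a was not among the features tested.

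Dgat2 encodes diacylglycerol acyltransferase 2, which makes triglyceride in many cell types, fat cells included. Its probe (chr7:106302215-106302274, mm9, minus strand) gave log2 signals of 5.85, 3.75 and 4.92 in tumors and 5.52, 6.23 and 6.65 in healthy skin. Tumor 1 lay above healthy skin 1, so the groups overlapped. The means were 4.84 ± 1.05 in tumors and 6.13 ± 0.57 in healthy skin (SD, n = 3 each), and the difference did not pass the test (log2 fold change -1.29 ± 0.56 SE, 95% interval -2.61 to 0.02, adjusted p = 0.128). It was called only when arrays were weighted by quality (-1.59, adjusted p = 0.0339), in a range over the alternatives of 0.0339 to 0.719.

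Elovl3, an elongase of saturated and monounsaturated very long chain fatty acids, is needed for normal sebum in mice. Its probe at chr19:46209762-46209821 (plus strand) was at -2.92, -2.96 and -0.20 on the log2 scale in tumors and at 1.10, 1.79 and 1.28 in healthy skin. The healthy skin samples lay close together, and tumor 3 stood apart from the other tumors. Means of -2.02 ± 1.58 in tumors and 1.39 ± 0.36 in healthy skin (SD, n = 3 each) made a 10.6-fold fall (log2 fold change -3.41 ± 0.73 SE, adjusted p = 0.015). The difference missed the threshold with the slide row as a block (-3.30, adjusted p = 0.0771) and with spike-in scaling (-2.52, 0.0719). It also missed without healthy skin 3 and tumor 1 together (0.0986). Over all alternatives the adjusted p was 0.0015 to 0.0986.

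Fa2h encodes fatty acid 2-hydroxylase, which makes 2-hydroxylated lipids for sebum and for the myelin and epidermal barrier lipids. Its probe (chr8:113869096-113869155, minus strand) gave 0.19, -0.95 and 2.05 in tumors and 4.40, 5.37 and 5.15 in healthy skin. All tumors were more than 2 log2 units below the lowest healthy skin sample. The means were 0.43 ± 1.51 in tumors and 4.97 ± 0.51 in healthy skin (SD, n = 3 each), a 23.3-fold fall (log2 fold change -4.54 ± 0.72 SE, adjusted p = 0.00513). The call held with the slide row as a block (-4.72, adjusted p = 0.0287) and failed without healthy skin 3 and tumor 1 together (adjusted p = 0.0606).

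Scd1 and Scd3 encode stearoyl-CoA desaturases, which put a double bond into saturated fatty acids; loss of Scd1 in mice shrinks the sebaceous glands. Scd1 (probe at chr19:44469387-44469446, minus strand) had log2 signals of 1.06, 2.73 and 2.42 in tumors and 4.55, 5.57 and 4.36 in healthy skin. Tumor 1 was the lowest of the tumors here. Scd1 fell 6.75-fold, with means of 2.07 ± 0.89 in tumors and 4.83 ± 0.65 in healthy skin (SD, n = 3 each; log2 fold change -2.75 ± 0.53 SE, adjusted p = 0.0103), but was not called with the slide row as a block (-2.29, adjusted p = 0.0678) or spike-in scaling (0.159).

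Scd3 was measured by 3 probes that all gave lower signal in tumors but by unequal amounts. The one with the highest mean, which stood for the gene and starts at base 3212 of its transcript (chr19:44318249-44318308, plus strand), was at -0.15, -0.54 and -0.81 in tumors and at 0.75, 1.88 and 2.16 in healthy skin, a 4.27-fold fall (log2 fold change -2.10 ± 0.42 SE, adjusted p = 0.0124). The probe at base 1666 (chr19:44316703-44316762) was at -5.77, -4.51 and -4.13 in tumors and at 0.41, 1.26 and 1.40 in healthy skin, with 2 of 3 tumor arrays well above background. Its fall of 56.7-fold (log2 fold change -5.83 ± 0.49 SE, adjusted p = 0.000671 in the fit of every probe, where 16.0% of probes were lower) shrank to a log2 fold change of -3.98 after normexp correction and -4.40 in the authors' deposited values. The remaining probe, at base 363 (chr19:44289995-44290054), lists transcripts of both Scd1 and Scd3, so its signal may hold both. It is shown because it cannot be given to 1 gene; no base is in capitals.
Scd3 and Scd1 probe (chr19:44289995-44290054, mm9, plus strand): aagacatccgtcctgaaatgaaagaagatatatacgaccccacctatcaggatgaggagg
This shared probe was at -3.19, -3.21 and -2.85 in tumors and at -1.002, -0.55 and -0.60 in healthy skin, a 5.15-fold fall (log2 fold change -2.37 ± 0.28 SE, adjusted p = 0.00195). The 3 Scd3 probes therefore gave log2 fold changes of -2.10, -5.83 and -2.37 for 1 gene and its close relative.

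The 4 desaturase genes lie next to each other on chromosome 19, in the order Scd3, Scd2, Scd4, Scd1, and did not all go the same way. Scd2, a desaturase of many tissues, was at 5.25, 4.57 and 4.97 in tumors and at 3.57, 3.17 and 2.78 in healthy skin. It was 3.38-fold higher in tumors (log2 fold change 1.76 ± 0.33 SE, adjusted p = 0.00963), was called in all 20 alternatives and had no overlap between groups. Scd4 was at -3.32, -3.33 and -2.59 in tumors and at -1.72, -1.73 and -2.04 in healthy skin, a smaller fall (-1.25 ± 0.31 SE, adjusted p = 0.0261) that was called in 8 of 20 alternatives.

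**Figure D2:**
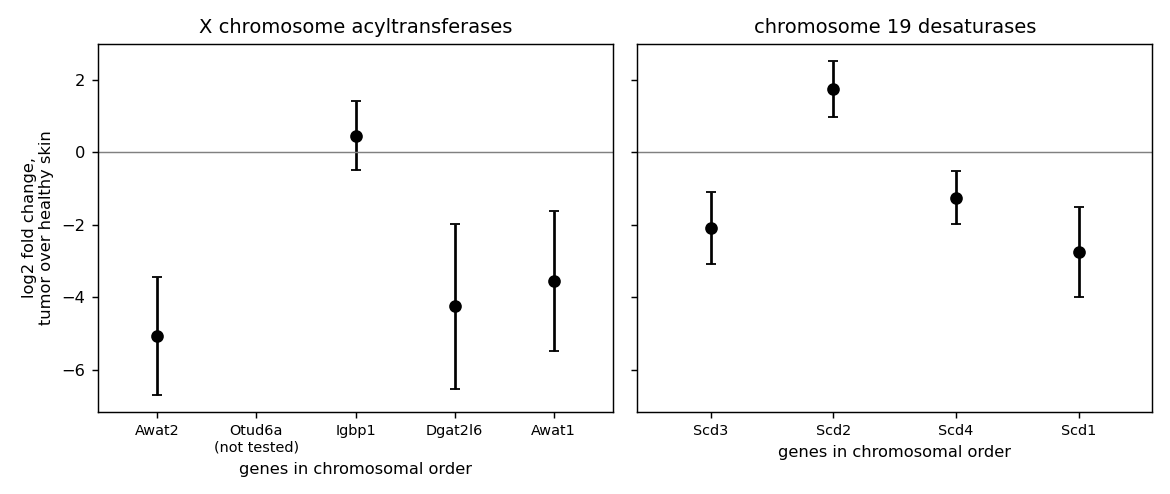
Log2 fold change, tumor over healthy skin (y axis), of the genes in the 2 chromosomal clusters in genome order, with 95% intervals. Awat2, Dgat2l6, Awat1, Scd3, Scd4 and Scd1 lie below 0, Igbp1 spans 0 and Scd2 lies above it.

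Krt79 encodes a keratin of the duct that joins the sebaceous gland to the hair canal. Its probe (chr15:101759764-101759823, minus strand) gave log2 signals of 3.92, 5.89 and 6.15 in tumors and 7.94, 7.66 and 8.14 in healthy skin. The signal stayed well above the 75th percentile in each tumor, and tumor 1 was the lowest. Krt79 fell 6.04-fold, with means of 5.32 ± 1.22 in tumors and 7.91 ± 0.24 in healthy skin (SD, n = 3 each; log2 fold change -2.59 ± 0.58 SE, adjusted p = 0.0177). The call was lost without healthy skin 3 (adjusted p = 0.0583), under the slide row block (-2.82, 0.0596) and with spike-in scaling (0.175).

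Mc5r encodes the melanocortin 5 receptor, a receptor for melanocortin peptides that drives sebum output in mice. It was at -2.13, -3.27 and -2.40 in tumors and at -2.89, -2.72 and -2.32 in healthy skin, with every array well above background. The groups overlapped, and the means were -2.60 ± 0.59 in tumors and -2.65 ± 0.30 in healthy skin (SD, n = 3 each). The difference was 0.05 ± 0.37 SE on the log2 scale (adjusted p = 0.937), and its 95% interval of -0.82 to 0.92 reaches nearly 2-fold either way. Its sign turned in some settings, such as the slide row block (-0.28). With spike-in scaling the value was 0.94, of the same sign.

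**Figure D3:**
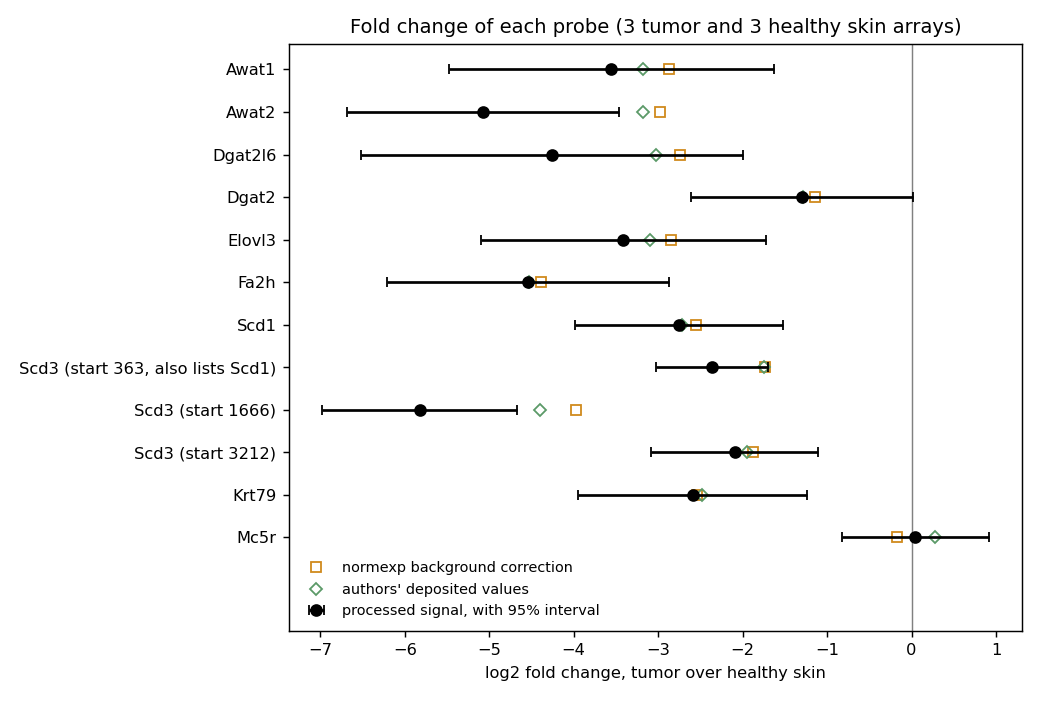
Log2 fold change, tumor over healthy skin, of each probe (x axis) in the fit of every probe, with its 95% interval, beside the values after normexp correction and in the authors' deposited table. The 3 sets of values differ most for the Scd3 probe at base 1666, Awat2 and Dgat2l6, the 3 probes not well above background on every tumor array.

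The 3 tumors did not fall alike. Tumor 3 was the highest tumor for 6 of the 10 genes and tumor 2 the lowest for 6. Those lowest in tumor 2 include Dgat2 and Mc5r, which were not called, and Elovl3, at -2.96 there against -2.92 in tumor 1. Tumor 1 was the array with a median background of 85. Relative to the healthy skin mean, the median of the 10 genes was -4.11 in tumor 1, -3.36 in tumor 2 and -1.90 in tumor 3. For Scd3 the probe that stood for the gene had tumor 3 as the lowest, while its other 2 probes had tumor 3 as the highest. Krt1 and Krt10, keratins of the differentiating epidermis, were also highest in tumor 3, at 5.42 and 6.16 there against 2.46 and 5.53 in tumor 1 and 1.90 and 2.94 in tumor 2; the part this plays was not tested.

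**Figure D4:**
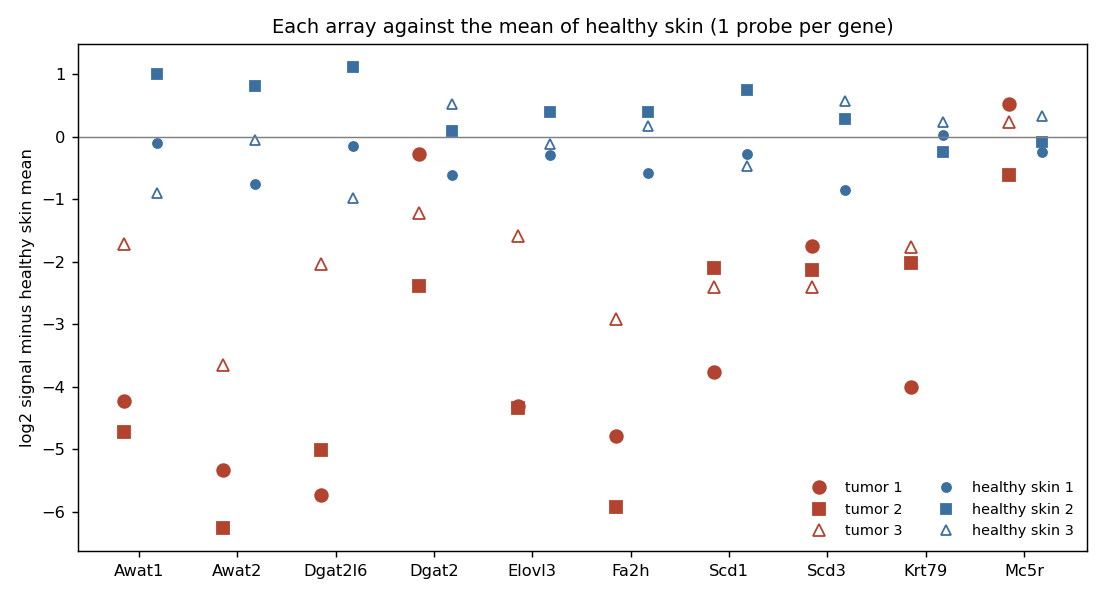
Log2 signal of each gene minus its healthy skin mean (y axis) for 3 tumors and 3 healthy skin samples. With 1 probe a gene, tumor 3 is the highest tumor for Awat1, Awat2, Dgat2l6, Elovl3, Fa2h and Krt79, and the lowest for Scd3, whose 2 probes not plotted have tumor 3 highest.

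Other lipid genes went in both directions. Of 10 tested genes for fatty alcohol, wax, sterol ester and triglyceride synthesis, 1 was lower and 3 were higher in tumors (median log2 fold change -0.34; 15.6% and 10.3% of all features). Gpam, which starts glycerolipid synthesis, fell by 2.74 ± 0.31 SE (adjusted p = 0.0015), while Far1, which makes fatty alcohols, rose (2.23 ± 0.39 SE, adjusted p = 0.00724). Soat2, a sterol ester synthase, and Mogat2, a monoacylglycerol acyltransferase, were higher too (2.20 and 1.17; adjusted p = 0.0215 and 0.0389), Mogat2 in 9 of 20 alternatives. The count of 3 was 1 without tumor 1, tumor 3, healthy skin 1 or healthy skin 2. Far2 did not pass the detection filter.

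Of 18 genes of fatty acid synthesis, elongation and desaturation, 7 were lower and 2 higher (median -0.58). These are 38.9% and 11.1% of the list, against 15.6% and 10.3% of all features. The count of lower genes was 2 without tumor 2 or healthy skin 2, 4 without healthy skin 3, 3 with median scaling, the slide row block or no detection filter, 4 with the replicate number as a block and 1 with spike-in scaling. Elovl6, which elongates palmitate, was at 2.59, 2.04 and 2.98 in tumors and at 5.36, 6.47 and 5.91 in healthy skin, a fall of 3.37 on the log2 scale (adjusted p = 0.00169). Elovl5, an elongase of polyunsaturated fatty acids, fell by 1.72 (adjusted p = 0.0116). Apart from Scd2, the higher gene was Acss2, which makes acetyl-CoA from acetate (1.30, adjusted p = 0.0413, called in 12 of 20 alternatives).

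Among 17 regulators of sebocytes and lipid droplet genes, 8 were lower and 2 higher (median -0.95). These are 47.1% and 11.8% of the list, against 15.6% and 10.3% of all features. The lower count was 5 without healthy skin 2 or healthy skin 3 and 1 with spike-in scaling. Pparg, the gene of PPARγ, was at -1.78, -1.34 and -0.88 in tumors and at 1.20, 2.08 and 2.82 in healthy skin. Pparg fell 10.3-fold (log2 fold change -3.36 ± 0.46 SE, adjusted p = 0.00308). Of 11 adipocyte markers tested, 9 were lower too, and the part that fat tissue plays in the fall of Pparg was not tested. The higher genes were Fabp5, an epidermal fatty acid binding protein (1.48, adjusted p = 0.018), and Muc1, a membrane mucin (2.95, adjusted p = 0.0395), for which 1 of 3 healthy skin arrays was well above background; it was called in 9 of 19 alternatives.

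Markers of other tissue in the biopsies differed to unlike degrees, where 15.6% of all features were lower and 10.3% higher in tumors. Of 11 adipocyte markers tested, 9 were lower in tumors (median -4.26; Plin4 -4.43 and Adrb3 -4.96, adjusted p = 0.00106 and 0.00491), and 5 were without tumor 1, 4 without healthy skin 3 and 2 without both. Their summed signal, in multiples of each array's 75th percentile, was 74.9 to 223 in tumors against 145 to 549 in healthy skin. Fabp4, a fatty acid binding protein that was not called (log2 fold change 0.90), made up 85.1% to 94.7% of that sum in tumors against 21.1% to 28.3% in healthy skin. Without Fabp4, a sum taken after its values were seen, the range was 9.52 to 33.2 in tumors against 105 to 434 in healthy skin. All 10 skeletal muscle markers were lower (median -4.47; Pvalb -6.29, Tnnt3 -4.95), with sums of 33.2 to 88.2 in tumors against 1128 to 1673 in healthy skin. Each adipocyte and muscle marker tested was well above background on at least 1 tumor array. Of 15 hair follicle markers, 4 were lower (Lhx2 -5.43, Lgr5 -3.20, Hoxc13 -4.01 and Msx2 -1.63; median -0.36), with sums of 83.0 to 342 in tumors against 252 to 743 in healthy skin. Lhx2 was called in 20 of 20 alternatives, Lgr5 in 18, Hoxc13 in 14 and Msx2 in 7, and the lower count was 2 without healthy skin 1 or healthy skin 3. The other 11 hair genes did not pass the test, with log2 fold changes of -2.72 (Krt15) to 1.60 (Krt85). The inner root sheath keratin Krt71, picked after its values were seen, split within both groups, at 5.76, -5.44 and 5.39 in tumors and 7.62, -1.21 and -1.53 in healthy skin.

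Among keratinocyte markers, 3 of 10 basal and suprabasal genes were lower (Krt1 -2.95, Krt10 -3.38, Dsg1a -3.55; called in 8, 15 and 17 of 20 alternatives), with sums of 1319 to 1382 in tumors against 1307 to 1967 in healthy skin. None of the 3 was called with the slide row as a block, with spike-in scaling or without healthy skin 3 and tumor 1 together. Only 1 was called without healthy skin 2 or healthy skin 3. In the fit of every probe, another Krt10 probe was not called (-1.50, adjusted p = 0.196). Another Krt5 probe was higher there (2.51, adjusted p = 0.0153), and 2 of 4 Trp63 probes were lower. Of all features, 15.6% were lower and 10.3% higher. All 7 tumor keratinocyte markers were higher (median 6.20; Krt16 5.49, Krt6b 6.52), with sums of 813 to 1188 in tumors against 17.8 to 35.8 in healthy skin. Of 8 leukocyte markers, S100a8 (5.35) and Cd68 (2.61) were higher and Itgam (-2.60, but -0.35 as the mean of its probes) and Cd3e (-2.21) lower (each count was 1 without any 1 tumor), with sums of 255 to 440 in tumors against 284 to 535 in healthy skin. The part that these tissue differences play in the sebaceous gland genes was not tested.

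**Figure D5:**
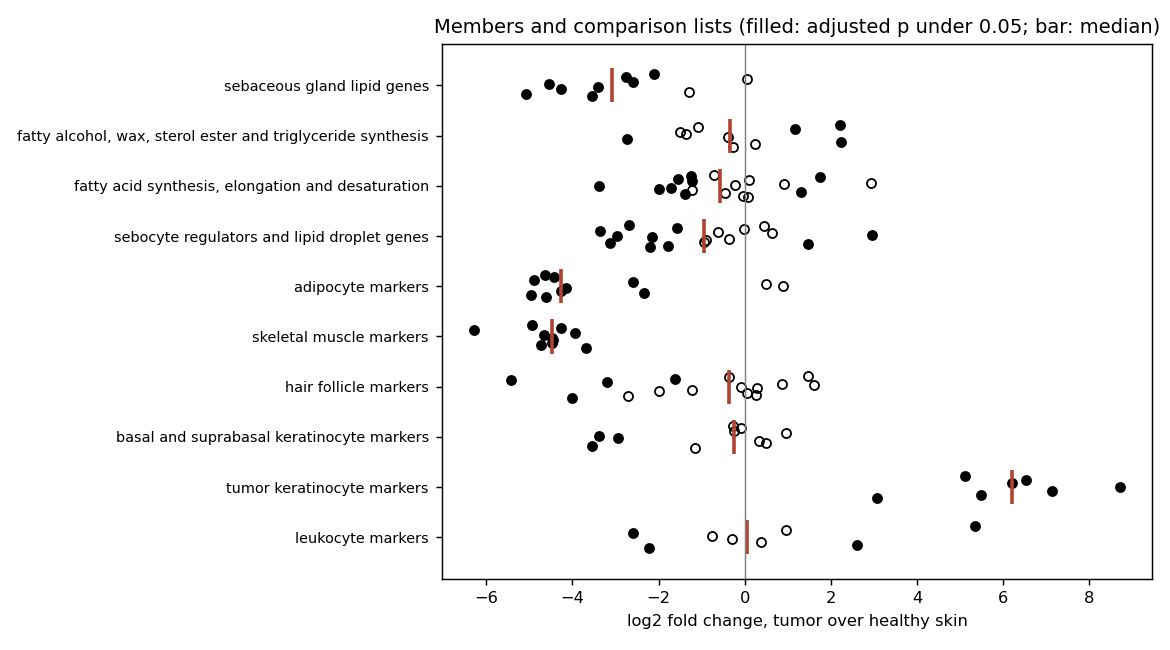
Log2 fold change, tumor over healthy skin, of the genes in each list, with list medians. The sebaceous gland genes (median -3.08), adipocyte (-4.26) and skeletal muscle (-4.47) markers lie low, the tumor keratinocyte markers (6.20) high.

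The genes whose profile over the 6 arrays was most like the mean profile of the 10 were Gpr182, a receptor gene, and Ins2, an insulin gene (Pearson r = 0.998 and 0.997), then Osbpl1a, an oxysterol binding protein relative, and Got1, an aspartate aminotransferase (0.997 and 0.996), and Pnpla5, a lipase relative, and Cyp1a1, a cytochrome P450 (0.996 each). The r describes these 6 arrays and includes the difference between groups, and 2.82% of all features had r over 0.95. Gpr182 fell by 2.61 and Got1 by 1.57 on the log2 scale (adjusted p = 0.00488 and 0.0108), Osbpl1a by 2.29 (0.00885). Pnpla5 was at -5.65, -6.27 and -2.63 in tumors and at 0.42, 1.39 and 0.36 in healthy skin, and Cyp1a1 at -5.79, -5.74 and -2.56 in tumors and 0.79, 1.76 and 0.64 in healthy skin, each with 1 tumor array well above background. Their log2 fold changes were -5.58 and -5.76 (adjusted p = 0.00536 and 0.00421). Ins2 did not pass the test (-0.75, adjusted p = 0.0768), and its sign turned with spike-in scaling.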

How the data were processed

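Total RNA from 3 tumors and 3 healthy skin biopsies was labelled with Cy3 and read on 1-colour arrays, with 0.2 µg of RNA and an RNA integrity number of 9 in each, per the labels. Intensity values, as deposited, came from Agilent Feature Extraction 10.7.3.1, per the file headers. The slide row was read from the ending of each deposited file's name. These endings place healthy skin 3 and all tumors in row 2 and healthy skin 1 and 2 in row 1. The authors' deposited series table holds log2 values with column medians of 6.33 to 6.35 that rank as the median spot signal does (Spearman 1); limma is named in the submitters' processing notes with no version, and how that table was scaled, centred and background corrected is not stated there. Precision is limited by the small number of arrays.

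Processed signals of the 59305 non-control spots were divided by the array's 75th percentile and taken to log2. Outlier spots were dropped (180 of 55681 probes lost), and probes well above background on at least 3 arrays were kept (34284). The probe with the highest mean stood for its gene. The test was limma 3.58.1 under R 4.3.3 (lmFit, eBayes, two-sided), with Benjamini-Hochberg adjustment over 24757 features, without a block; SE and intervals are limma's, and the scripts were tested on simulated data. Genes were named through RefSeq GRCm38.p6 (15276 features by accession, 1015 by symbol, 178 by synonym, 8288 keeping the array's name); probe positions are the array's mm9.

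The 10 genes and the lists were chosen with earlier results of these data known. Named were all 10 genes, from each list the 2 called genes with the lowest adjusted p in each direction, those against its majority and all of a count of 5 or fewer, and the 6 genes most like the members' mean profile. A result that this rule names is not reported here. The 20 alternatives covered scaling, background correction, the authors' values, filters, probe summaries, the fit, blocks and leaving out arrays.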

Additional observations from a re-analysis of the deposited data

How the results depend on the processing

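No alternative turned the direction of any of the 8 lower genes. Of 6420 features called (either direction), the number was 2678 with spike-in scaling, 3920 without a detection filter and 9858 with array weights; leaving out 1 array gave 3840 (without tumor 2) to 5456, with 4056 without healthy skin 2. The count of lower genes among the 10 was 2 with spike-in scaling, 3 under the slide row block and 4 without healthy skin 3 and tumor 1 together, and 6 to 8 when 1 array was left out (6 without tumor 1, tumor 2 or healthy skin 2). The filter for signal on all 6 arrays left 8 of the 10 genes to test, of which 6 were lower. The median log2 fold change of the 10 was -2.19 with spike-in scaling and -3.67 to -2.62 when 1 array was left out. Spike-in scaling moved the median of all features to 0.73 and median scaling to 0.21, against -0.16. The median of the 10 lay 2.92 below that of all features in each. These scalings shift all features of an array by the same amount, so that gap could not change and is no check. The slide row block leaves healthy skin 3 as the only healthy sample set against the tumors, and the cause of other lost calls was not tested.

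Same-numbered tumors and healthy skin samples deviated together with r of 0.103, 0.129 and -0.083 across features. Pairs of unlike number gave r of -0.275 to 0.166. With 3 samples a group, these values cannot tell whether the numbers pair the samples, and the labels do not say. With the replicate number as a block, 5468 features and 8 of the 10 genes were called. The median stayed at -3.08, since a balanced block leaves the fold changes as they are.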
